A study of Homo sapiens with 6 samples.

Results

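The G2 and mitosis genes described here are 53 genes that carry a cell from the end of DNA replication through division, among them CDK1 and its cyclins, the mitotic kinases, the spindle checkpoint, the kinesins, the kinetochore and condensin. They were chosen by gene symbol and found as 54 rows of a table of 20325 genes, because CKS1B, a small CDK1-binding subunit, appears under 2 identifiers. All 53 symbols passed the filter on low counts, as did 12305 genes in all. The second CKS1B row (ENSG00000268942) held 2 to 6 reads per library and was not tested. Their RNA was compared by bulk sequencing of 6 libraries. All came from SNU-668, a human line established from gastric cancer, in a form that the labels call erastin-resistant. The titles of all 6 libraries begin with RLS3, a name that the titles do not explain. Erastin, a drug that shuts off cystine uptake, kills cells by lipid peroxidation (ferroptosis). The control group is 3 libraries from resistant cells given a non-targeting shRNA (genotype label WT), and the knockdown group is 3 libraries from resistant cells given an shRNA against ALKBH3, a demethylase of alkylated DNA and RNA bases. The labels give 1 line, no time after transfection and no second shRNA, and separate cultures are not stated for the replicates. The p-values therefore reflect library-to-library spread that could be technical.

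Mitosis is started by cyclin B bound to CDK1 and helped along by the Aurora and Polo-like kinases. The spindle checkpoint delays anaphase until every kinetochore, the protein plate on each centromere, is attached to microtubules. It does so by holding back CDC20, the activator of the ubiquitin ligase APC/C, which destroys cyclin B and securin. Condensin compacts the chromosomes, and kinesins, PRC1 and anillin build the spindle midzone and the cleavage furrow. Transcripts of these genes climb together in G2, under the activator complex of MuvB with MYBL2 and FOXM1, and fall again after division.

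Depth was 14244932 to 15470321 counts per control library and 14890452 to 17880183 per knockdown library. ALKBH3 itself had 326, 351 and 334 reads with the control shRNA and 95, 106 and 68 with the knockdown. In CPM, the count per 1e6 counts of the library, this was 22.8 ± 0.201 against 5.26 ± 0.728 (mean ± SD, n = 3 each). The log2 fold change of -2.11 was far beyond this spread (SE 0.137, edgeR's quasi-likelihood test with Benjamini-Hochberg adjustment, adjusted p = 1.01e-10). Of 12 epithelial and gastric markers, CDH1, CLDN18, MUC5AC and GKN1 had 0 reads in all libraries, and the gastric TFF1 and TFF2 had at most 2 reads in any. The keratins KRT8 and KRT18 were read at 11.96 to 18.3 and 137 to 200.3 CPM, MUC1 at 2.39 to 4.05 CPM, and EPCAM, KRT19 and KRT20 at under 2 CPM. The summed level of the epithelial list was 155.9 to 176.3 CPM in controls and 211.8 to 222.9 after knockdown, with KRT8 and KRT18 called higher. The mesenchymal list summed to 9906 to 10930 CPM against 9478 to 10370 with 0 of 8 tested genes called, and the leukocyte and endothelial list to at most 4.056 CPM in any library. The part of the epithelial difference in the results below was not tested. Control replicate 3 stood apart: over 12174 genes its deviation from the control mean correlated with transcript length at Spearman's rho = -0.412, so long transcripts read low in it.

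The mitotic genes were lower in the knockdown as a group, by a small amount. Of the 53 members, 21 fell and 0 rose (edgeR's quasi-likelihood test, Benjamini-Hochberg adjustment over 12305 genes, adjusted p under 0.05). Among all tested genes 4.12% were called lower and 3.96% higher, against 39.6% of the members called lower. The members were chosen with earlier results of these data known, so these shares describe the list and are not a test of it. The largest called falls were those of CDC20, the APC/C activator, at -0.60 on the log2 scale, of the condensin subunit NCAPH at -0.57, and of KIF20A, a kinesin of the spindle midzone, at -0.50. At an unadjusted p under 0.05, 38 members were lower and 0 higher, where the shares over all genes were 11.1% lower and 11.0% higher. The sign of the log2 fold change was negative for 50 members, and 48.4% of all genes had a negative sign. The positive ones were KIF14 at 0.17, ESPL1 at 0.06 and CENPE at 0.00467, and none of these was called. The median log2 fold change of the members was -0.23, beside 0.0075 over all tested genes. In bulk RNA, a smaller share of cells in G2 and mitosis and less of each transcript per dividing cell cannot be told apart.

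**Figure D1:**
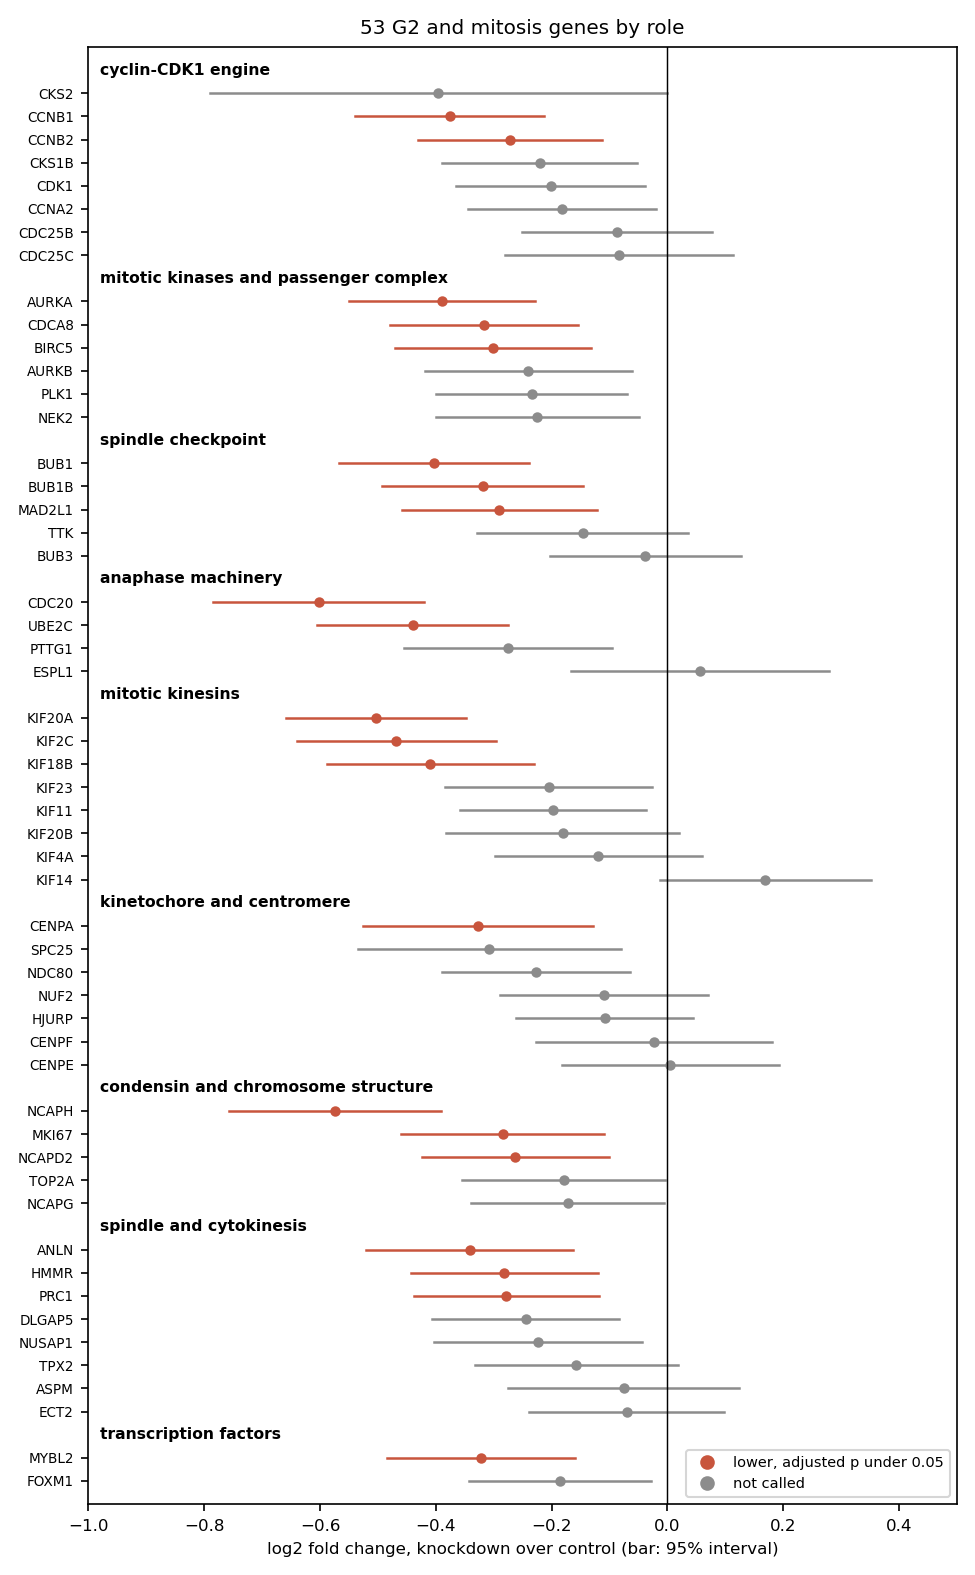
Fitted log2 fold change (horizontal axis, knockdown over control, 3 libraries each) of the 53 members in 9 classes by role, with 95% intervals as bars and members called lower in red. Of the 53 points 50 lie left of 0, and those right of it (KIF14, ESPL1 and CENPE) have intervals that include 0.

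Library by library, the members' counts made up 1.115%, 1.046% and 1.02% of all counts in controls and 0.9382%, 0.8913% and 0.9034% after knockdown. The mean log2 level of the 53 genes, set against the control mean, was 0.0665, -0.0246 and -0.0419 in control replicates 1 to 3 and -0.200, -0.274 and -0.237 in knockdown replicates 1 to 3. The groups were thus separate, with knockdown replicate 2 the lowest, at 82.7% of the control mean. For 34 of 53 members every knockdown library was below every control library and for 0 members above, beside 13.3% in each direction over all genes. Control replicate 1 was the highest of the 6 libraries for 31 members, and knockdown replicate 2 the lowest for 22. Leaving out single libraries changed the count of members called lower: it was 15 when control replicate 1 was omitted, 9 when knockdown replicate 2 was, and 13 when knockdown replicate 3 was. The share of all tested genes called lower also fell, from 4.12% to 3.29%, 2.32% and 2.29% in the same order. The count of members lay between 17 and 20 with any other library omitted, beside 2.8% to 3.39% of all genes. No member was called higher in any of these fits. The 9 genes called in every leave-one-out fit were CCNB1, AURKA, BUB1, CDC20, UBE2C, KIF18B, KIF20A, KIF2C and NCAPH.

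**Figure D2:**
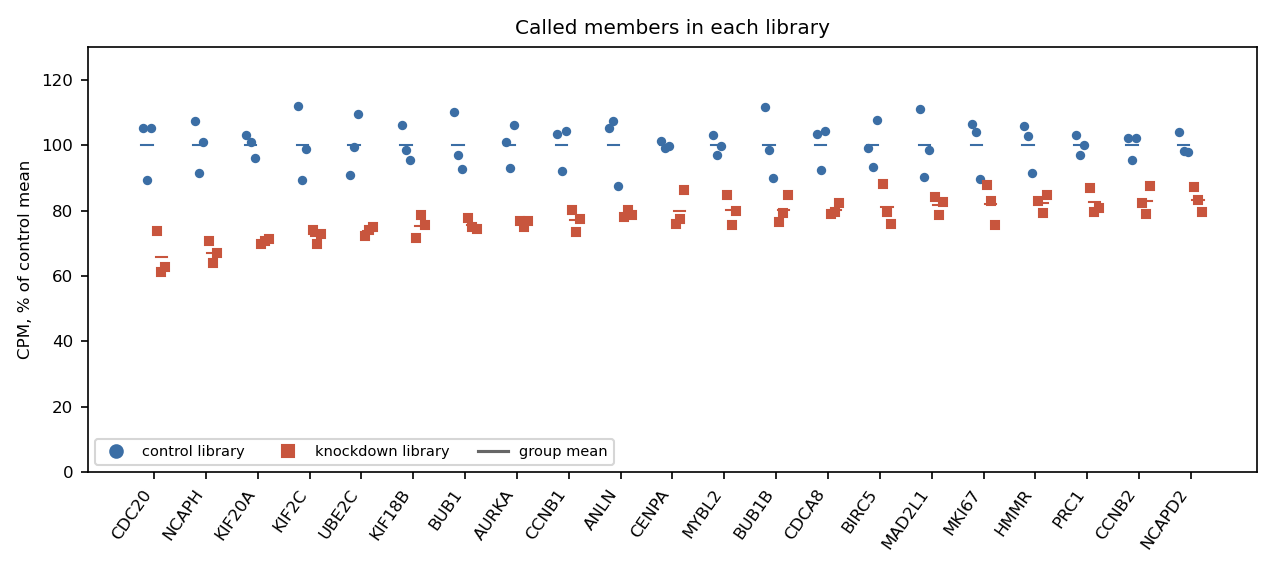
Level of the 21 members called lower in each library, as a percent of the gene's control mean (vertical axis, CPM, from 0), with control libraries as blue circles, knockdown libraries as red squares and short lines for the group means. In each of the 21 genes all knockdown libraries lie below all control libraries, and the group means are furthest apart for CDC20, NCAPH and KIF20A.

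Since transcription of G2 genes runs through short promoter motifs, the member promoters were read for them, and 6 are shown here as examples. Windows from 250 bases before to 50 bases after the start were taken from RefSeq (GRCh38.p14), 1 per gene, and matched 46 of 53 members (not AURKA, BIRC5, BUB3, TTK, UBE2C, TPX2 or FOXM1). The cell cycle homology region (CHR), searched on either strand as TTTGAA and as its variant TTCGAA, is where MuvB binds. The CCAAT box, searched as CCAAT on either strand (ATTGG on the other), is bound by NF-Y. The stretches below are the 150 bases before the start, on the strand of the gene, 5′ to 3′, with CHR and CCAAT matches in capitals, and E2F matches are not marked. CDC20 (chr1:43358831-43358980, plus strand), CDCA8 (chr1:37692366-37692515, plus), PRC1 (chr15:90994536-90994685, minus) and KIF20A (chr5:138178962-138179111, plus) were called lower, while ESPL1 (chr12:53268149-53268298, plus) and ASPM (chr1:197146670-197146819, minus) were not called.
CDC20: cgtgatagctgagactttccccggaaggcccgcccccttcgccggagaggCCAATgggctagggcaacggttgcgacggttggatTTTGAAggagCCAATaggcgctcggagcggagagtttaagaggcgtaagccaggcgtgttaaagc
CDCA8: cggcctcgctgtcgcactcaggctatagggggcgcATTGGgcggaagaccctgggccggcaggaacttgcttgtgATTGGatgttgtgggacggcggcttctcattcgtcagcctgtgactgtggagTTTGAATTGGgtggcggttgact
PRC1: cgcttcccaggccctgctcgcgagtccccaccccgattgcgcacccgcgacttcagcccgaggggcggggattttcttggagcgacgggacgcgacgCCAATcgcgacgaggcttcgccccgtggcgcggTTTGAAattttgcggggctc
KIF20A: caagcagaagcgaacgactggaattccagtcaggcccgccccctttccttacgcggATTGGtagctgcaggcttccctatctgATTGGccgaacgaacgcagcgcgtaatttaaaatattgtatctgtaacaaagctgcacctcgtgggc
ESPL1: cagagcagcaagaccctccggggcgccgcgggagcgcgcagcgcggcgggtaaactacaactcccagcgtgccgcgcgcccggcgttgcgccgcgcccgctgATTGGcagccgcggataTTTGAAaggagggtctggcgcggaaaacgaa
ASPM: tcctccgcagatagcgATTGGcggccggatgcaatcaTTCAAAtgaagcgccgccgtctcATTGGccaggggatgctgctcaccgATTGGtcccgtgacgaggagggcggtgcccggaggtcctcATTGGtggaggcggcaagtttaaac
CDC20 has a CHR at -65 between CCAAT boxes at -100 and -55, counted in bases before the start. In CDCA8 the CHR at -23 and a CCAAT box at -18 share bases. KIF20A was added by name. It has 2 CCAAT boxes and no match to the searched CHR forms in this stretch, and fell by 0.50 on the log2 scale. Other forms of the motif were not searched. The rest were picked among members with both motifs in this stretch, the called ones with the lowest adjusted p and the uncalled with the highest. ESPL1 and ASPM thus hold both motifs by choice, and no contrast between the 6 was tested.

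Over the 46 promoters, 34 held a CHR (73.9%), beside 10.8% of the 9365 promoters of tested genes and 16.6% of all 27305 promoters. A CCAAT box was in 36 (78.3%), against 36.7% of tested genes and 35.7% of all promoters, and 24 members (52.2%) had at least 2, against 13.7% of tested genes and 11.3% of all promoters. Both motifs were present in 29 (63.0%), against 4.66% of tested genes and 6.58% of all promoters. The CHR matches centred close to the start, with a median of -28 over 45 matches, and the CCAAT matches further out, with a median of -79 over 83. Within the list a CHR and the pair of motifs were about as common in the genes that fell as in the rest. A CHR was in 13 of 18 members called lower (72.2%) and 21 of 28 not called (75.0%), and both motifs were in 61.1% and 64.3%. At least 2 CCAAT boxes were in 11 of 18 members called lower (61.1%) and 13 of 28 not called (46.4%). E2F motifs, searched on either strand as TTCCCGC, then as TTCGCGC, then as TTGGCGC and then as TTGCCGC, were in 4 of 18 members called lower (22.2%) and 11 of 28 not called (39.3%), with 1971 of 9365 among tested genes and 13.1% among all promoters. These are matches of letters, a description and not a test, and the median GC content of the member windows was 61.9% against 65.3% for tested genes.

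**Figure D3:**
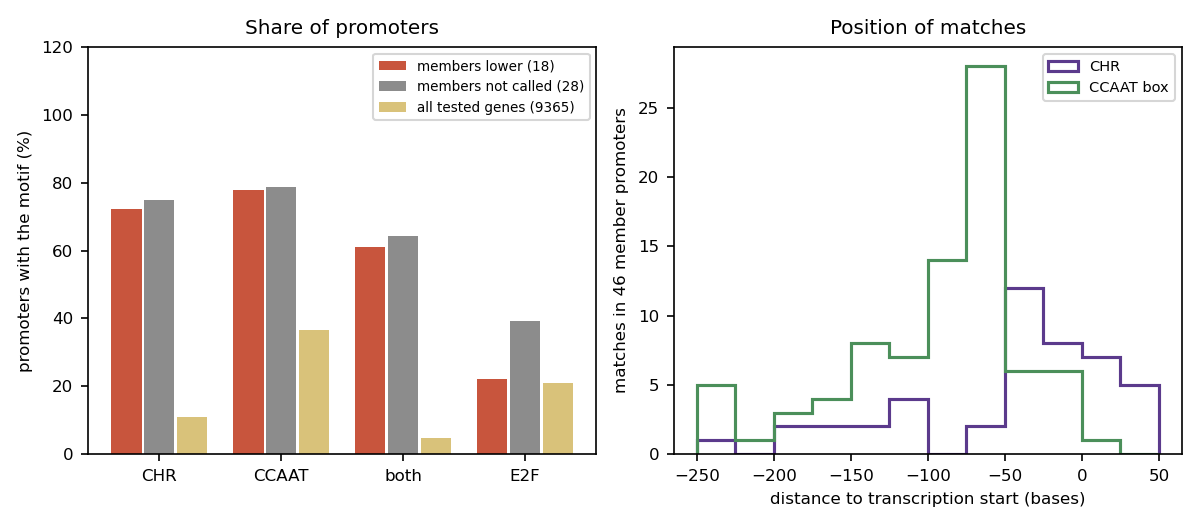
Left, percent of promoter windows holding each motif (vertical axis, from 0) in members called lower (18), members not called (28) and all tested genes (9365); right, number of CHR and CCAAT matches in the 46 member promoters by distance to the transcription start in bases. Both member groups stand above the tested genes for CHR, CCAAT and the pair, at 61.1% and 64.3% against 4.66% for the pair, and the CCAAT matches peak farther from the start than the CHR matches.

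The cyclin and CDK1 genes start mitosis, and 2 of 8 fell, both of them B-type cyclins. CCNB1, the main mitotic cyclin, stood at 281, 250.3 and 284 CPM in controls and at 218, 199.7 and 211 after knockdown. Every knockdown value was under every control value, and the log2 fold change was -0.38 (SE 0.0792, edgeR adjusted p = 0.00296). CCNB2 stood at 125, 117 and 125 CPM against 101, 96.7 and 107, a log2 fold change of -0.27 (edgeR adjusted p = 0.0283). The CCNB2 call is less firm, since its adjusted p was 0.0684 or 0.0631 when control replicate 1 or 3 was omitted, and 0.0627 or 0.174 when knockdown replicate 1 or 2 was. Their kinase CDK1 read 190.2, 190.3 and 173 CPM in control and 149, 162 and 172 in knockdown libraries, where control replicate 3 and knockdown replicate 3 nearly meet, and was not called (log2 fold change -0.20, edgeR adjusted p = 0.122). CCNA2, the cyclin of S and G2 phase, was at -0.18 with an adjusted p of 0.165 by edgeR. The members that switch CDK1 on as phosphatases were not called either, with CDC25B at -0.09 (95% interval -0.25 to 0.08) and CDC25C at -0.08 (-0.28 to 0.11). The CDK-activating phosphatase CDC25A, outside the members, was called lower (log2 fold change -0.51, edgeR adjusted p = 0.00503). CKS2, the other small CDK1-binding subunit, had the largest fitted change of the class at -0.40, but its control libraries spread from 93.4 CPM in replicate 1 to 151 and 138 in the others, and the knockdown values were 82.8, 104 and 104 CPM. It was not called (edgeR adjusted p = 0.223), and became so without control replicate 1 (adjusted p = 2.56e-04).

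Among the mitotic kinases and the chromosomal passenger complex, 3 of 6 fell, and all 6 had an unadjusted p under 0.05. AURKA, the centrosomal Aurora kinase, was at 294, 270.1 and 309 CPM in control and 224, 218 and 224 in knockdown libraries. The knockdown values lay within 6 CPM of each other, well under the lowest control, with a log2 fold change of -0.39 (SE 0.0780, edgeR adjusted p = 0.00183). CDCA8 (borealin) and BIRC5 (survivin), which place Aurora B on the centromere, fell by 0.32 and 0.30 on the log2 scale (edgeR adjusted p = 0.0119 and 0.0227). AURKB itself read 65.9, 64.4 and 74.2 CPM against 56.5, 61.8 and 54.8, separate groups with a log2 fold change of -0.24 that missed the threshold (edgeR adjusted p = 0.0907). PLK1, the Polo-like kinase of mitotic entry and the centrosome, was likewise separate, with 126, 118 and 126 CPM against 115, 102 and 98.5, and missed it at -0.23 (edgeR adjusted p = 0.0708). It was called without knockdown replicate 1 (adjusted p = 0.0262). NEK2, a centrosome kinase, was at -0.22 with groups that overlapped. Without knockdown replicate 2 AURKA was the only call of the class, with BIRC5 at an adjusted p of 0.113 and CDCA8 at 0.0666, and the BIRC5 call was also lost when replicate 3 of either group was omitted (0.0908 for control, 0.144 for knockdown).

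In the spindle checkpoint 3 of 5 genes fell, with a median log2 fold change of -0.29. BUB1, the kinase that brings checkpoint proteins to the kinetochore, was at 206, 181 and 173 CPM in control and 145, 139.9 and 139 in knockdown libraries. This was a log2 fold change of -0.40 (SE 0.0798, edgeR adjusted p = 0.00167). BUB1B (BUBR1) and MAD2L1 (MAD2), which form the complex that holds CDC20, fell by 0.32 and 0.29 (edgeR adjusted p = 0.0187 and 0.0270), from control values of 144, 127 and 116 CPM and of 172, 140.2 and 153 CPM. Control replicate 1 was the highest library for both, and without it neither was called (adjusted p = 0.108 and 0.141). BUB1B was also lost without knockdown replicate 1 (0.0638) and both were lost without knockdown replicate 2 (0.0819 and 0.146), while MAD2L1 was lost without knockdown replicate 3 (0.0815). TTK (MPS1), the kinase at the top of the checkpoint, was not called at -0.15 (edgeR adjusted p = 0.345). BUB3, the partner of BUB1 and BUBR1, read 222, 188 and 199.6 CPM against 198, 192 and 204, overlapping groups with a log2 fold change of -0.04 and a 95% interval of -0.20 to 0.13.

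The genes that trigger anaphase included the largest fall and one of the flattest profiles. CDC20 (ENSG00000117399, chr1:43824626-43828874 in hg19, plus strand) was at 355, 301 and 355 CPM in controls and at 248, 206 and 211 after knockdown. The lowest control was above the highest knockdown library by more than 50 CPM, and the log2 fold change was -0.60 (SE 0.0884, edgeR adjusted p = 5.31e-05). UBE2C, the ubiquitin-conjugating enzyme that works with the APC/C, was at 188, 205 and 226 CPM against 149, 153 and 154, a log2 fold change of -0.44 (edgeR adjusted p = 7.07e-04). PTTG1 (securin), the inhibitor that CDC20 directs to destruction, was at 234, 228 and 275 CPM against 224, 188 and 196, and missed the threshold (log2 fold change -0.28, edgeR adjusted p = 0.0510). It was called in 3 of 6 leave-one-out fits. ESPL1 (separase), the protease securin inhibits, stood at 34.2, 26.8 and 30.0 CPM against 33.9, 28.4 and 32.3. Its groups overlapped throughout, and its log2 fold change was 0.06 with a 95% interval of -0.17 to 0.28.

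Of the 8 mitotic kinesins, motors that move along or take apart spindle microtubules, 3 fell and kept their calls in all 6 leave-one-out fits. KIF20A (MKLP2, ENSG00000112984, chr5:137514408-137523404 in hg19, plus strand), which carries the passenger complex to the midzone, was at 296, 290.1 and 276 CPM against 201, 203 and 205. Here both groups were tight, and the log2 fold change was -0.50 (SE 0.0756, edgeR adjusted p = 6.81e-05). KIF2C (MCAK) and KIF18B, which shorten microtubules, fell by 0.47 and 0.41 (edgeR adjusted p = 5.80e-04 and 0.00313). KIF2C read 238, 189.8 and 210.1 CPM in control and 158, 149 and 155 in knockdown libraries. KIF11 (Eg5), which separates the spindle poles, read 126, 112 and 113 CPM against 102, 101 and 104, separate groups that were not called (log2 fold change -0.20, edgeR adjusted p = 0.122). The midzone kinesins KIF23 and KIF4A were at -0.20 and -0.12, KIF20B was at -0.18, and all overlapped between groups. KIF14, a kinesin of cytokinesis, pointed the other way with 56.7, 52.5 and 47.6 CPM against 61.0, 58.9 and 56.1. Its log2 fold change was 0.17, its 95% interval -0.01 to 0.35, and its edgeR adjusted p 0.267. Within KIF20A, 268 bases of the BRD8 gene and 66 of CDC23 lie on the other strand, and whether counting used strand is not given in the sources used here.

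The kinetochore and centromere genes had the smallest median among the 9 classes, -0.11, and 1 of 7 fell. CENPA, the histone H3 variant that marks centromeres, was at 38.1, 37.3 and 37.5 CPM against 28.5, 29.1 and 32.4, a log2 fold change of -0.33 (SE 0.0962, edgeR adjusted p = 0.0345). This was the least stable call of the 21. It was kept in 1 of 6 leave-one-out fits, with adjusted p between 0.0575 and 0.153 without control replicates 1, 2 or 3 or knockdown replicates 1 or 2, and it was lost with library totals as the only scaling (0.0532). CENPA also shares 16943 bases with SLC35F6 on the same strand, so reads could be divided between them. Of the NDC80 complex, which grips microtubules, NDC80 and SPC25 were at -0.23 and -0.31 with separate groups and NUF2 at -0.11 with overlap, none called (edgeR adjusted p = 0.0776, 0.0892 and 0.5003). HJURP, the chaperone that loads CENPA, read 167, 174 and 172 CPM against 155, 158 and 162 (log2 fold change -0.11, edgeR adjusted p = 0.418). The large proteins of the outer kinetochore corona did not separate: CENPE read 121, 131 and 97.7 CPM against 123, 111 and 117, and CENPF 339, 338 and 273 against 359.6, 295 and 279.9. In both the low control was replicate 3, and without it the log2 fold change of CENPE was -0.11 (edgeR adjusted p = 0.493).

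Of the condensin and chromosome structure genes 3 of 5 fell, with the largest fitted change in NCAPH. NCAPH (ENSG00000121152, chr2:97001525-97039583 in hg19, plus strand), the kleisin subunit that closes the condensin I ring, was at 70.4, 60.0 and 66.2 CPM in control and 46.2, 41.9 and 43.9 in knockdown libraries. The gap between groups was wider than the spread of either, and the log2 fold change was -0.57 (SE 0.0889, edgeR adjusted p = 1.03e-04). The other condensin I subunits had smaller fitted changes. NCAPD2 fell by 0.26 (edgeR adjusted p = 0.0383), and NCAPG was at -0.17 with overlapping groups (edgeR adjusted p = 0.208). SMC2 and SMC4, the ATPase core shared with condensin II and counted outside the 53, were at -0.01 and 0.01 with overlapping groups (edgeR adjusted p = 0.976 and 0.971). The differences between subunits were not tested. MKI67, which coats mitotic chromosomes and is the source of the Ki-67 proliferation stain, was at 353, 345 and 297 CPM against 291, 275 and 251 (log2 fold change -0.28, edgeR adjusted p = 0.0375). TOP2A, the topoisomerase that untangles sister chromatids, read 982, 959.6 and 834 CPM against 835, 811 and 804 and was not called (log2 fold change -0.18, edgeR adjusted p = 0.215). Control replicate 3 touched the knockdown range in TOP2A. NCAPH was the only call of the class when control replicate 1 or 2 or knockdown replicate 2 or 3 was omitted, and with library totals alone, where MKI67 and NCAPD2 had adjusted p of 0.0586 and 0.0628. MRPL51 overlaps 486 bases of NCAPD2 on the other strand.

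Of the 8 genes of spindle assembly and cytokinesis 3 fell, each by about the same amount. ANLN (anillin), the scaffold of the cleavage furrow, was at 679, 694 and 565 CPM against 504, 518 and 509 (log2 fold change -0.34, SE 0.0867, edgeR adjusted p = 0.0138). HMMR, a spindle pole protein, and PRC1, which bundles the midzone microtubules, each fell by 0.28 (edgeR adjusted p = 0.0252 for both). PRC1 read 352, 331 and 342 CPM against 297, 272 and 276. These calls depended on single libraries: 1 of the 3 kept its call when control replicate 1 (ANLN) or control replicate 2 (PRC1) was omitted, and 0 did when knockdown replicate 2 or 3 was. The log2 fold changes stayed negative in all leave-one-out fits. They ran from -0.43 to -0.29 for ANLN, -0.34 to -0.24 for HMMR and -0.32 to -0.25 for PRC1. DLGAP5, a spindle microtubule stabiliser, was just over the threshold at -0.24 (edgeR adjusted p = 0.0539). NUSAP1 and TPX2, which nucleate and bundle spindle microtubules, were at -0.22 and -0.16 and were not called. ECT2, the exchange factor that starts furrowing, was at -0.07 and ASPM, a spindle pole protein, at -0.08. ASPM read 163, 180.4 and 127 CPM against 148, 152 and 146, so that its knockdown libraries sat inside the control range.

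Of the transcription factors that drive the G2 program, 1 of 2 fell. MYBL2 (B-MYB), the partner of MuvB, was at 103, 97.2 and 100.04 CPM against 84.9, 75.7 and 80.0, a log2 fold change of -0.32 (SE 0.0789, edgeR adjusted p = 0.0107). FOXM1 was at 280.0, 272 and 280.1 CPM against 255, 245 and 232, also separate, and was not called (log2 fold change -0.19, 95% interval -0.34 to -0.03, edgeR adjusted p = 0.143). The MYBL2 call was lost without knockdown replicate 2 (adjusted p = 0.101) and without knockdown replicate 3 (0.0507). RHNO1 and ITFG2 overlap FOXM1 on the other strand by 783 and 2111 bases.

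**Figure D4:**
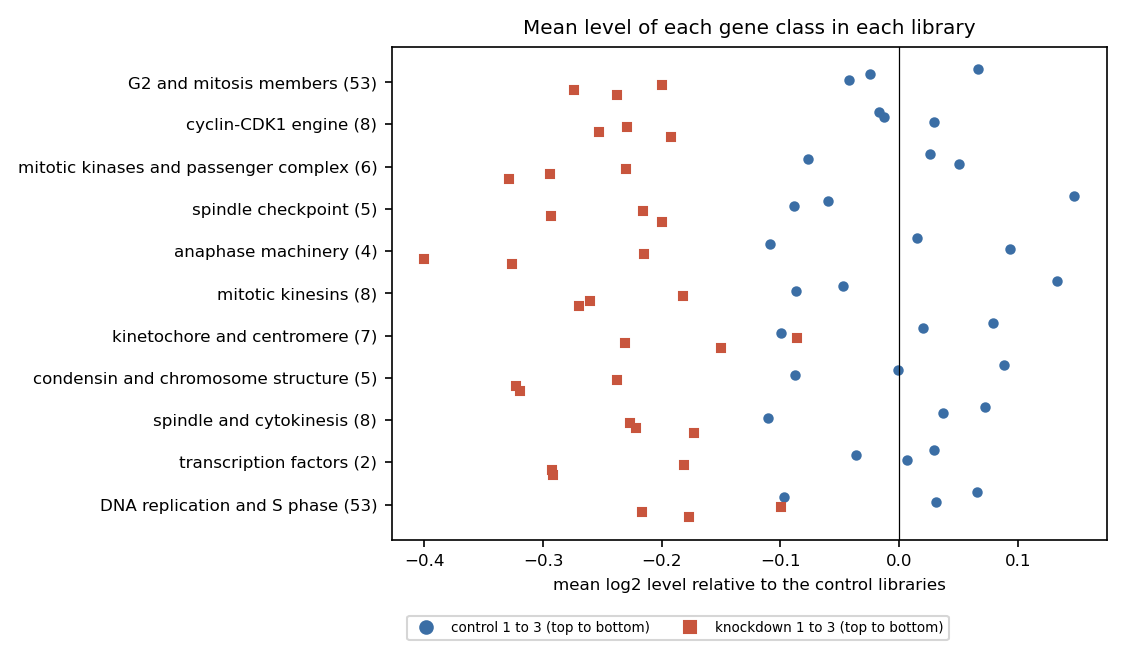
Mean log2 level of the genes of each class in each library, relative to the mean of the control libraries (horizontal axis), with blue circles for control and red squares for knockdown replicates 1 to 3 from top to bottom and the number of genes in brackets. In 8 classes all knockdown libraries lie left of all control libraries, and in the kinetochore and centromere class knockdown replicate 1 (-0.09) lies right of control replicate 3 (-0.10).

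Set side by side, the share called lower was 60% in the spindle checkpoint and in condensin and chromosome structure, 50% in the kinases and passenger complex, 37.5% in the kinesins and 14.3% in the kinetochore and centromere. The median log2 fold changes of these classes were -0.29, -0.26, -0.27, -0.20 and -0.11 in the same order. With 5 to 8 genes per class these are counts of few genes, and the differences between classes were not tested. The order also depended on the libraries. Without knockdown replicate 2, the call was 1 gene each in the checkpoint, the condensin class and the kinases, beside 3 in the kinesins. Without control replicate 1 it was 1 gene each in the checkpoint and the condensin class, beside 3 each in the kinases and the kinesins. The library means of the classes were separate between groups in each of these except the kinetochore and centromere.

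Transcript length went with the response inside the list, although not in every class: of the 7 kinetochore and centromere genes, CENPE (8612 bases) and CENPF (10307) are long, while NUF2 (1969), whose groups also overlapped, is short. The longest annotated transcript of a member ranged from 613 to 12678 bases, with a median of 3187 (GENCODE 29). Across the 53 members, Spearman's rho between length and log2 fold change was 0.452, a description over genes that share the same libraries, against 0.0377 over 12174 genes. The 26 members above the median length had a median log2 fold change of -0.18 with 9 called, and the 27 others -0.28 with 12 called. In control replicate 3 the members' deviation from the control mean correlated with length at rho = -0.666, in control replicate 1 at 0.496 and in control replicate 2 at 0.283. The knockdown libraries, set against the knockdown mean, gave 0.108, 0.0697 and -0.201. Deviations from a group's own mean cancel within the group, so the values of its libraries are not independent of each other. With a length trend removed from each library, a setting chosen after seeing the data, 25 members were lower, the 21 among them. The share of all tested genes called lower also rose, from 4.12% to 5.51%. CENPE was at -0.02 in that fit.

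**Figure D5:**
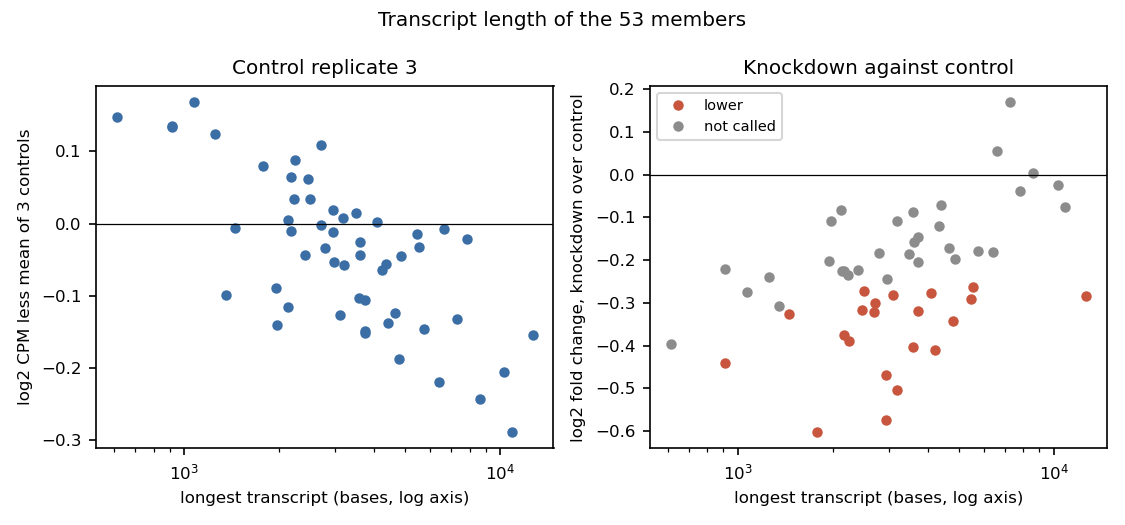
Longest transcript of each of the 53 members (horizontal axis, bases, log scale) against its log2 CPM in control replicate 3 less the mean of the control libraries (left) and against the fitted log2 fold change of knockdown over control, red where called lower (right). Long members read low in control replicate 3 (rho = -0.666), and the members with the least negative fold changes are among the long ones (rho = 0.452).

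Other genes of the same machinery, outside the 53, also included falls. Over 6 further lists of 118 tested genes, also chosen with earlier results known, 21 fell and 0 rose (17.8%, with 4.12% of all genes lower). The median log2 fold change was -0.10. With library totals alone or a replicate block, 3 genes of these lists were called higher, 1 each in the APC/C, mitotic entry and DREAM lists. Further spindle and cytokinesis genes had the highest share, with 10 of 25 lower (40%) and a median of -0.22. The lowest adjusted p there were those of FAM83D, SPAG5 and TROAP, spindle and microtubule proteins that fell by 0.53, 0.42 and 0.40 (edgeR adjusted p = 4.77e-05, 0.00108 and 0.00950). This count was 6 without control replicate 1 or knockdown replicate 1, 3 and 2 without knockdown replicates 2 and 3, and 5 with library totals alone. Of 29 further kinetochore genes 5 fell, among them ZWINT, CENPO and CENPI at -0.34, -0.41 and -0.35 (edgeR adjusted p = 0.00887, 0.0107 and 0.0160). The count of 5 became 3 on omitting control replicate 1 or either of knockdown replicates 1 and 3, and 1 on omitting knockdown replicate 2.

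Of 14 regulators of mitotic entry 3 fell: CDC25A, the CDK-activating phosphatase of S and G2 phase, by 0.51, CCNF, the cyclin-like subunit of a ubiquitin ligase, by 0.41, and GTSE1, a G2 and S phase microtubule protein, by 0.31 (edgeR adjusted p = 0.00503, 0.0116 and 0.0106). Only 1 of these was called without knockdown replicate 3, where GTSE1 had an adjusted p of 0.0642 and CCNF 0.0569. In the remaining lists the share called lower was near the 4.12% of all genes, at 6.25% for condensin and cohesin and 5.88% each for the APC/C and the DREAM group. Of 16 further condensin and cohesin genes NCAPD3, a subunit of condensin II, fell by 0.46 (133, 112 and 114 CPM against 94.4, 83.2 and 83.2, edgeR adjusted p = 8.67e-04), and 2 of the 16 were called without control replicate 3. The APC/C and its partners showed 1 of 17 lower, FZR1, the activator that takes over from CDC20, at -0.35 (edgeR adjusted p = 0.0323). FZR1 was not called without control replicate 3 or any 1 knockdown replicate. Among 17 genes of the DREAM, MuvB, RB and E2F group, the repressors and activators of cell cycle promoters, 1 fell, the repressor E2F7 at -0.29 (edgeR adjusted p = 0.0213), and it was not called without control replicate 1 or knockdown replicates 2 or 3.

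DNA replication and S phase genes served as a neighbouring phase. Of 53 tested, 9 fell and 0 rose (17%, with 4.12% of all genes lower), and the median log2 fold change was -0.14. In 18 every knockdown library was below every control library, beside 13.3% of all genes. Their mean log2 levels were 0.066, -0.097 and 0.031 in controls and -0.099, -0.216 and -0.177 after knockdown, so control replicate 2 and knockdown replicate 1 nearly coincide. The lowest adjusted p were those of GINS4, CDC6 and PRIM2, replication factors that fell by 0.57, 0.49 and 0.49 (edgeR adjusted p = 1.56e-04, 5.89e-04 and 0.00109). The count was 17 with control replicate 2 omitted and 5 with knockdown replicate 2 omitted, and the difference between the mitotic and the S phase genes was not tested.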

How the data were processed

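RNA-seq read counts per gene were used from 3 control and 3 knockdown libraries, grouped by the genotype label, with 14244932 to 17880183 counts each. The deposited values are raw counts, per the file headers. The tools, per the submitters' processing notes, were STAR 2.7.9a, featureCounts 2.0, fastp 0.20.0 and DESeq2, with build hg19. Annotation and strand setting are not stated in these notes or the labels. A further 6 columns of values normalised by the authors were not used. Of 20325 genes, 4008 had 0 reads, and 2 blank lines were dropped. Libraries of 1 group differed by more than counting noise, so each was kept as a replicate. Knockdown replicates 2 and 3 were the most alike, with a chi-square per degree of freedom between their counts of 2.989. For the other pairs within a group it was 9.797 to 10.46. Whether knockdown replicates 2 and 3 are less independent of each other was not tested.

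Counts were fitted in R 4.3.3 with edgeR 4.0.16 (filterByExpr, TMM scaling, robust quasi-likelihood test, Benjamini-Hochberg over 12305 genes, called at an adjusted p under 0.05), after tests on simulated data. CPM are TMM-scaled. Per-gene log2 levels are log2 CPM less the control mean. Alternatives were DESeq2 1.42.0, limma 3.58.1, other scalings, filters and thresholds, a replicate block and each library left out. Members and lists were chosen with earlier results of these data known. Named outside the members are the called genes of each list with the lowest adjusted p, up to 3. Transcript lengths came from GENCODE 29 and promoters from RefSeq, the first window listed per gene.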

Additional observations from a re-analysis of the deposited data

How the results depend on the processing

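With 3 libraries per group, small changes in single genes were at the edge of what could be called, and the count of members lower moved with the libraries used more than with the method. It was 18 to 25 over 10 other methods and scalings, with 3.21% to 5.51% of all genes lower. In each of these 0 members were higher, while up to 3 of 118 further cell division genes were. The median log2 fold change of the members lay between -0.27 and -0.21 over all settings. At a threshold of 0.01, 9 members were lower, with 207 genes lower and 251 higher in all, and at 0.1 there were 771 genes lower and 743 higher. Leaving out 1 library at a time gave 9 to 20 members lower, 285 to 423 genes lower and 312 to 433 higher. With library totals as the only scaling, 417 genes were lower and 610 higher, so 40.6% of calls were lower against 51% with TMM. The TMM factors were 0.9867 to 0.9975 in controls and 1.006 to 1.011 after knockdown. The median log2 fold change over all tested genes was 0.0332 with library totals and 0.0075 with TMM. The cause of these shifts was not tested.

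A replicate block gave 25 members lower, with 647 genes lower (5.26%) and 587 higher in all, against 507 (4.12%) and 487 in the main fit. Libraries with the same number did not deviate together (r = 0.0674, 0.159 and -0.102), so the numbers were not taken as pairs. Of the named genes, those that changed sign were uncalled and near 0. CENPE was at -0.0206 with the length trend removed, and its leave-one-out values ran from -0.107 to 0.0989. Those of BUB3 ran from -0.09275 to 0.0306, those of ESPL1 from -0.0273 to 0.1497 and those of ASPM from -0.207 to 0.0359. A limma fit on the authors' normalised columns was replaced, after seeing the data, by one on counts over DESeq2 size factors plus 1. The length setting was also added then.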
